A study of Mus musculus with 12 samples.

Results

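The 10 genes described here belong to the amino acid stress pathway of the transcription factor ATF4, and were measured in blood stem and progenitor cells of mice with and without the gene Mll5. They are Atf4 itself, Ddit3, Trib3, Chac1, Asns, Psat1, Phgdh, Shmt2, Sesn2 and Ddit4. They were taken by name, and each was read from its own probe set on an expression microarray, as 10 of 22180 gene symbols measured. Where a symbol had several probe sets, the one with the highest mean over the 12 arrays was used, and each of the 10 genes had exactly 1 that named it alone. The cells were Lin-Sca1+Kit+ (LSK) cells, the sorted fraction of bone marrow that holds blood stem cells and early progenitors. All mice were C57BL/6, and they were either wild type (Mll5+/+) or lacked Mll5 (Mll5-/-); the gene, now called Kmt2e, encodes a chromatin protein of the trithorax family. Each genotype was studied without treatment (mock) or with the antioxidant N-acetyl-L-cysteine (NAC), a cysteine precursor. NAC was given at 1 g per liter of drinking water, from the mating of Mll5+/- parents through pregnancy and for the life of the offspring. The design thus had 4 groups of 3 arrays: wild-type mock, Mll5-/- mock, wild-type NAC and Mll5-/- NAC. The age of the mice, and whether each array came from a separate mouse, were not given in the sources used here, so the p-values below rest on the spread among arrays, which may be technical in origin.

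ATF4 is the main effector of the integrated stress response. When amino acids run short, or when the endoplasmic reticulum, mitochondria or haem supply are disturbed, kinases phosphorylate the translation factor eIF2alpha; translation falls overall while that of the Atf4 mRNA rises, so the level of the Atf4 mRNA is not a measure of ATF4 protein. ATF4 then pairs with other leucine zipper proteins on C/EBP-ATF response elements and induces genes for amino acid synthesis, uptake and tRNA charging, together with genes that slow growth or, under lasting stress, favour cell death. In blood stem cells the pathway is known for its part in the response to amino acid shortage and to unfolded proteins.

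Some of the genes carry the core of that response element close to their start. The core searched was TGATGNAA, on both strands, in the 300 bases that run from 250 bases before to 50 bases after each annotated start in RefSeq (build GRCm38.p6). All 10 genes had a window, and the core was present in 3 of the 10 genes, namely Asns, Chac1 and Trib3, against 4.51% of 27025 genes, or 3.97% of 32851 promoter windows. The windows are printed 5′ to 3′ on the strand of the gene, with the core in capitals. That of Asns is chr6:7693160-7693459 on the minus strand, with the core from position -23 (the base before the start is -1). That of Chac1 is chr2:119350992-119351291 on the plus strand, where the core lies on the opposite strand and its first printed base is at -193. That of Trib3 is chr2:152344011-152344310 on the minus strand, where the core again lies on the opposite strand, from position 15.
Asns: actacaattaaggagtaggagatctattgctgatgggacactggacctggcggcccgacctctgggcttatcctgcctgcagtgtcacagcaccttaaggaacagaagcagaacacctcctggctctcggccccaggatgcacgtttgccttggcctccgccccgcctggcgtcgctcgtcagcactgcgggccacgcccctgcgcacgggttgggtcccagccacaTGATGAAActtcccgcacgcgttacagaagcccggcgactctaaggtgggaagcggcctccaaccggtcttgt
Chac1: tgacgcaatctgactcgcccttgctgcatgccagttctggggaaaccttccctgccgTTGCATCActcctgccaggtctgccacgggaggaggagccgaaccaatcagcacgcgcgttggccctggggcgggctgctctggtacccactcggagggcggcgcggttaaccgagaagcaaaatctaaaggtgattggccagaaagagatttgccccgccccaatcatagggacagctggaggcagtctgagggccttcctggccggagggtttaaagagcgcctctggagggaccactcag
Trib3: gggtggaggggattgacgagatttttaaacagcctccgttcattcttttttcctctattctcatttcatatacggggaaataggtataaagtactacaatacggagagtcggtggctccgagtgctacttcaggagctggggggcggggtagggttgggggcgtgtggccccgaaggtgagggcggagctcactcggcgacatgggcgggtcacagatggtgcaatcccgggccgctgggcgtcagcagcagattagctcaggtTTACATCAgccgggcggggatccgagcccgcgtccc
The windows of Atf4, Ddit3, Psat1, Phgdh, Shmt2, Sesn2 and Ddit4 did not hold these letters, which says nothing about elements elsewhere or in other spellings.

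Markers of the labelled cell type and of other cells were read against the median signal. Of 10 LSK markers, 9 had a probe set, and all 9 lay above 3.17, the median log2 signal over all symbols, with mean signals of 9.05 for Kit, 10.36 for Cd34 and 8.51 for Flt3; Ly6a, the gene of Sca1, had no probe set of its own. Of the markers of other cells, those above that median were 0 of 5 for T cells, 2 of 6 for stromal cells, 3 of 8 for neutrophils, 7 of 9 for B and plasma cells and 6 of 8 for monocytes and macrophages. They were 4 of 5 for erythroid cells, 6 of 7 for megakaryocytes and platelets, 5 of 6 for mast cells and basophils and 7 of 7 for committed granulocyte and monocyte progenitors. Since most markers of several other cell types also passed, this threshold cannot tell LSK cells from a mixture. The array medians ran from 3.16 to 3.25, and arrays correlated at 0.976 to 0.988 across symbols. By fitted array weights, where 1 is average, wild-type mock replicate 1 (0.71) and Mll5-/- NAC replicate 1 (0.54) stood furthest below the others. Kmt2e, the targeted gene, read 7.49, 7.39 and 7.68 in wild-type mock, 7.51, 7.38 and 6.93 in Mll5-/- mock, 7.37, 7.78 and 7.50 in wild-type NAC, and 7.02, 7.33 and 7.01 in Mll5-/- NAC. The mutant mean was 0.25 lower in mock and 0.43 lower in NAC, with the mock groups overlapping; where the probe set lies relative to the deleted part is not known here, so these values do not check the genotypes.

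None of the 10 genes passed the test in any comparison. In the limma fit over all 22180 symbols, with Benjamini-Hochberg adjusted p under 0.05 as the threshold, 0 of 10 genes passed for Mll5-/- against wild type in mock, where 0.00902% of all symbols did, and 0 of 10 also had an unadjusted p under 0.05, against 6.63%. For the same genotype comparison in NAC, 0 of 10 passed (0% of all symbols) and 1, Sesn2, had an unadjusted p under 0.05 (7.17%). For NAC against mock, 0 of 10 passed in Mll5-/- cells (0.00451%), with 0 at an unadjusted p under 0.05 (5.86%), and 0 of 10 passed in wild-type cells (0.00902%), with 2, Asns and Phgdh, at an unadjusted p under 0.05 (5.92%). The test of whether the genotype difference itself differed between NAC and mock gave 0 of 10 (0%), with 0 at an unadjusted p under 0.05 (4.21%). Averaged over both treatments, the genotype comparison gave 0 of 10 (0.00902%) and 1, Psat1, at an unadjusted p under 0.05 (9.08%); averaged over both genotypes, NAC gave 0 of 10 (0.00451%) and 1, Asns (7.43%). So few symbols passed anywhere that these adjusted counts do not set the 10 genes apart from the rest of the array.

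Groups of 3 arrays did not overlap for 1 to 3 of the 10 genes in each pairwise comparison, against 10.2% to 12.4% of all symbols. Whether these counts exceeded that share was not tested. In mock, Asns and Trib3 were higher in every Mll5-/- array than in every wild-type array, 2 of 10 genes against 11.4% of all symbols separated in either direction. In NAC, Psat1 and Phgdh were higher and Shmt2 was lower in every Mll5-/- array, 3 of 10 genes against 12.4%. In Mll5-/- cells 1 gene, Psat1, separated NAC from mock (10.2%), and in wild-type cells 3 did, Asns and Shmt2 higher and Phgdh lower with NAC (10.7%). When all 6 arrays of one genotype were set against all 6 of the other, 0 of 10 genes separated (0.546%), and 0 of 10 did so for NAC against mock (0.338%). As a group the 10 genes had median log2 differences of 0.07 for genotype in mock and -0.01 in NAC, and of 0.07 and 0.06 for NAC in Mll5-/- and in wild-type cells, beside medians over all symbols close to 0 (at most 0.01 in size). Comparisons that share a group are not independent of each other.

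**Figure D1:**
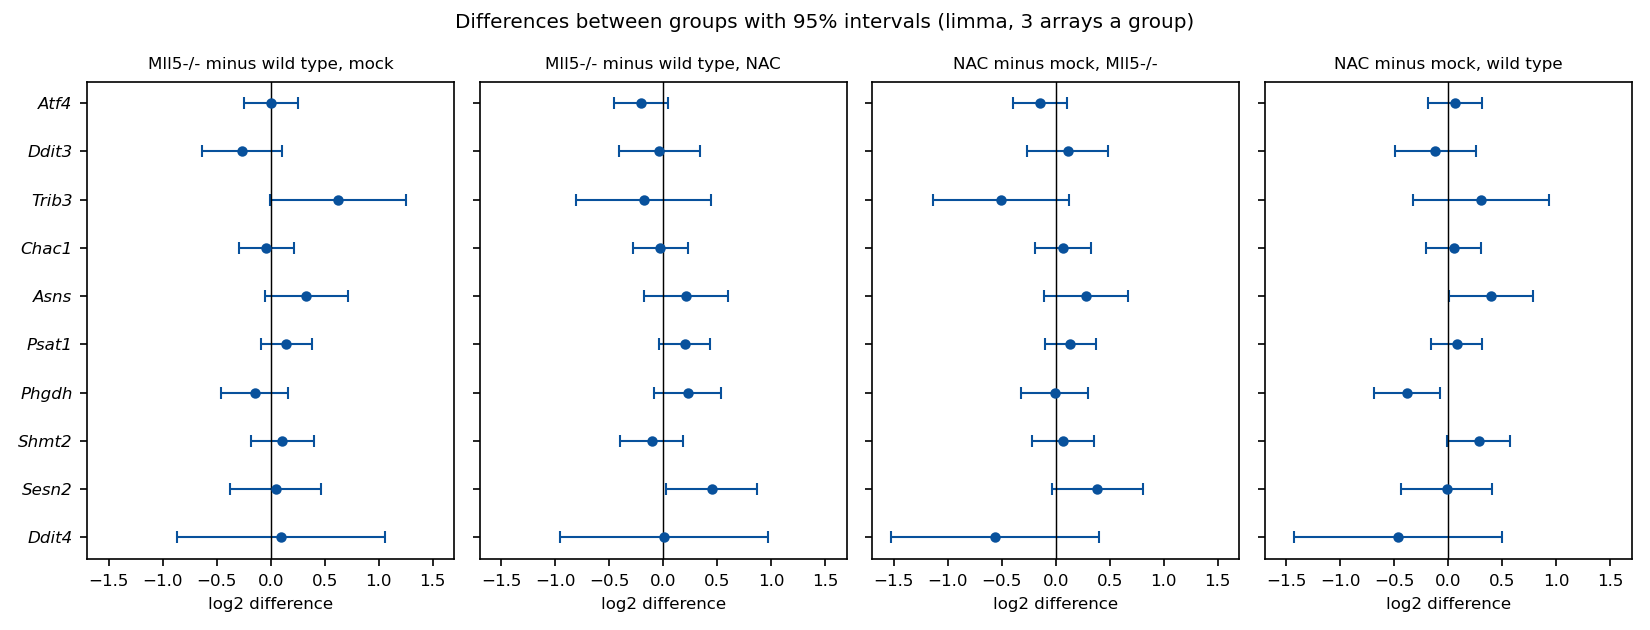
Differences in log2 signal between groups for each gene (points) with 95% confidence intervals from the limma fit (bars), 3 arrays a group, in 4 comparisons. Most intervals include 0, those of Trib3 and Ddit4 are the widest, and the 3 that leave out 0 are Sesn2 for genotype in NAC and Asns and Phgdh for NAC in wild-type cells.

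The intervals say how large a difference these arrays leave room for. Over the 4 pairwise comparisons the furthest bound of the 95% interval lay at 1.25-fold for Chac1, 1.35-fold for Psat1, 1.37-fold for Atf4 and 1.48-fold for Shmt2. It lay at 1.56-fold for Ddit3, 1.62-fold for Phgdh, 1.72-fold for Asns and 1.83-fold for Sesn2. Trib3 and Ddit4 were measured least precisely, with bounds out to 2.38-fold and 2.88-fold. Chac1 and Trib3 had mean signals of 2.62 and 2.86, below the median over symbols, where a low level cannot be told from none. Their bounds therefore apply to the signal and may understate a change in the transcript. Sesn2, with a mean of 3.56, lay only a little above the median, so the same may hold for its bound.

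Atf4, the regulator, gave a strong signal on every array, and its arrays lay close together, with a spread within groups smaller than all but 4.62% of symbols. It read 10.48, 10.41 and 10.53 in wild-type mock, 10.53, 10.50 and 10.39 in Mll5-/- mock, 10.46, 10.55 and 10.59 in wild-type NAC, and 10.16, 10.47 and 10.36 in Mll5-/- NAC. The low value belonged to Mll5-/- NAC replicate 1, and all 4 groups overlapped with at least one other. The genotype difference was 0.00 in mock (95% interval -0.25 to 0.25), where both means were 10.47, and -0.20 ± 0.12 (SE) in NAC, with an unadjusted p of 0.10. In order the group means ran from 10.53 ± 0.07 (SD, n = 3) in wild-type NAC through 10.47 in both mock groups to 10.33 ± 0.16 in Mll5-/- NAC, and no neighbours in that order differed beyond their spread.

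Ddit3 encodes CHOP, a transcription factor that ATF4 induces and that favours cell death when stress lasts. Its signal was 6.94, 6.96 and 7.03 in wild-type mock, 7.07, 6.48 and 6.58 in Mll5-/- mock, 6.80, 6.94 and 6.83 in wild-type NAC, and 6.91, 6.49 and 7.06 in Mll5-/- NAC. The wild-type arrays were tight and the mutant arrays were scattered, with SDs of 0.05 and 0.07 in the wild-type groups against 0.32 and 0.30 in the mutant groups; this difference in spread was not tested. In each mutant group at least 1 array stayed at 6.91 or above, inside or over the wild-type range. Mean differences between genotypes were -0.27 ± 0.17 (SE) in mock and -0.04 ± 0.17 in NAC.

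Trib3, a pseudokinase that is induced by ATF4 and CHOP and in turn restrains ATF4, varied strongly between arrays of a group. Its mean signal of 2.86 lay below the median over symbols, and its spread within groups exceeded that of 95.3% of symbols. It read 2.25, 2.72 and 2.84 in wild-type mock, 3.06, 2.90 and 3.72 in Mll5-/- mock, 3.33, 2.49 and 2.89 in wild-type NAC, and 2.24, 3.26 and 2.66 in Mll5-/- NAC. All 3 Mll5-/- mock arrays lay above the 3 wild-type mock arrays, while the NAC groups covered each other's range. The genotype difference in mock, 0.62 ± 0.29 (SE), was the largest of any of the 10 genes in the 4 pairwise comparisons, equal to 1.54-fold, with a 95% interval of -0.01 to 1.25 and an adjusted p of 0.76 in the limma fit. Without Mll5-/- mock replicate 3, the 3.72 array, it was 0.38. In NAC it was -0.18 ± 0.29, and the change in the genotype difference between mock and NAC was -0.81 ± 0.41, with an unadjusted p of 0.072 and an adjusted p of 0.999.

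Chac1, an enzyme that breaks down glutathione and is a sensitive target of ATF4, was flat, with all 12 arrays inside 0.35 log2 units. It read 2.63, 2.43 and 2.78 in wild-type mock, 2.56, 2.61 and 2.54 in Mll5-/- mock, 2.70, 2.66 and 2.63 in wild-type NAC, and 2.74, 2.55 and 2.62 in Mll5-/- NAC. Every group overlapped with the others in range except for Mll5-/- mock, which ended at 2.61 just under the lowest wild-type NAC value of 2.63. No pairwise difference exceeded 0.07 in size. Its mean signal of 2.62 lay under the median over symbols, where a low level of a transcript cannot be told from none. Besides Chac1 and Trib3, the other 8 genes lay above that median, Sesn2 only a little at 3.56.

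Asns encodes asparagine synthetase, the classic amino acid response gene, and its mean was higher in Mll5-/- cells in both treatments and with NAC in both genotypes, as that of Psat1 was. Its signal was 4.76, 5.17 and 5.14 in wild-type mock, 5.39, 5.37 and 5.30 in Mll5-/- mock, 5.39, 5.50 and 5.37 in wild-type NAC, and 6.09, 5.46 and 5.35 in Mll5-/- NAC. Wild-type mock was the low group, below every array of the other 3 groups, and those 3 groups overlapped one another. The means ran from 5.02 ± 0.23 (SD, n = 3) in wild-type mock to 5.35 ± 0.05 in Mll5-/- mock, 5.42 ± 0.07 in wild-type NAC and 5.63 ± 0.40 in Mll5-/- NAC. Averaged over both genotypes the difference with NAC was 0.34 ± 0.13 (SE; 95% interval 0.06 to 0.61), with an unadjusted p of 0.020 and an adjusted p of 0.56 in the limma fit. In wild-type cells alone it was 0.40 ± 0.18, with an unadjusted p of 0.046 and an adjusted p of 0.84. The lowest and the highest Asns values came from the 2 arrays with low weights, wild-type mock replicate 1 and Mll5-/- NAC replicate 1. Without both arrays, the average difference with NAC was 0.16 with an unadjusted p of 0.084, and the difference in wild-type cells was 0.27. The genotype difference was 0.33 ± 0.18 in mock, or 0.20 without wild-type mock replicate 1, and 0.21 ± 0.18 in NAC, or -0.02 without Mll5-/- NAC replicate 1.

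**Figure D2:**
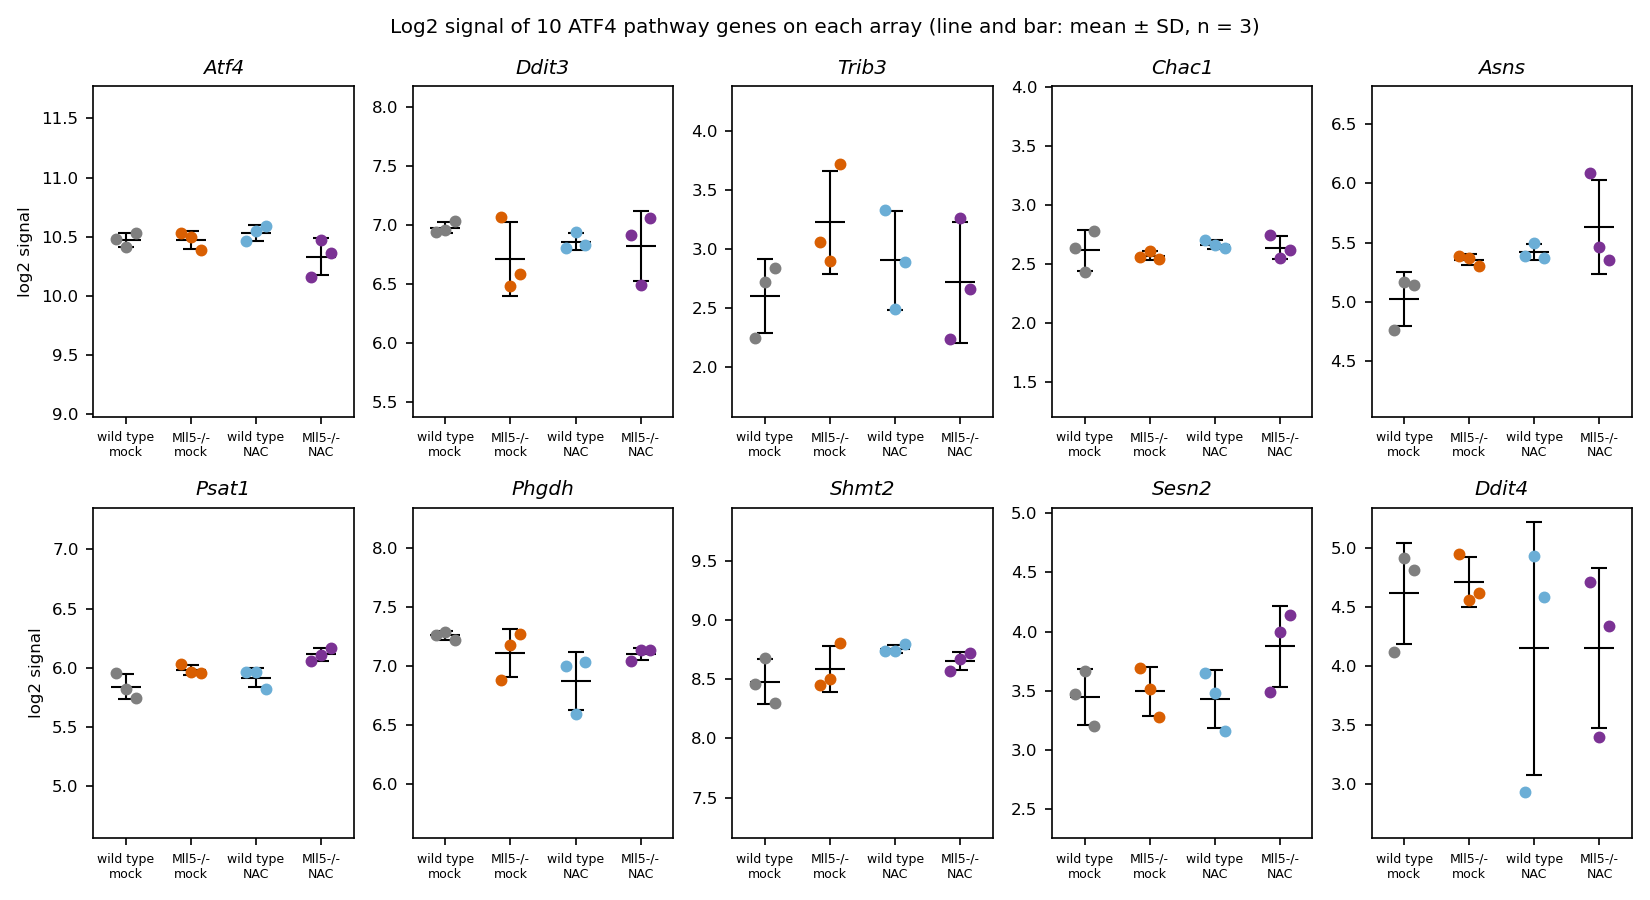
Log2 signal of each gene on each of the 12 arrays (points) in the 4 groups, with the group mean and SD (n = 3). Asns is lowest in wild-type mock, Ddit4 has 1 low array in each NAC group, and Atf4, Chac1 and Psat1 stay within narrow ranges.

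Phgdh, Psat1 and Shmt2 encode enzymes of serine and glycine synthesis, and the order of the groups differed between them. Phgdh, the first enzyme of serine synthesis, read 7.26, 7.29 and 7.22 in wild-type mock, 6.88, 7.18 and 7.27 in Mll5-/- mock, 7.0, 6.59 and 7.03 in wild-type NAC, and 7.04, 7.13 and 7.13 in Mll5-/- NAC. All wild-type NAC arrays lay below all arrays of wild-type mock and of Mll5-/- NAC, and overlapped with Mll5-/- mock. The difference with NAC in wild-type cells was -0.38 ± 0.14 (SE; 95% interval -0.69 to -0.07), with an unadjusted p of 0.019 and an adjusted p of 0.77 in the limma fit, and without wild-type NAC replicate 2, the 6.59 array, it was -0.24 with an unadjusted p of 0.11. In Mll5-/- cells the same difference was -0.01, and the change between genotypes was 0.37 ± 0.20, with an unadjusted p of 0.088 and an adjusted p of 0.999.

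Psat1, the transaminase that follows Phgdh, had the smallest spread within groups of the 10 genes, smaller than all but 1.21% of symbols. It read 5.95, 5.82 and 5.74 in wild-type mock, 6.03, 5.96 and 5.95 in Mll5-/- mock, 5.96, 5.96 and 5.82 in wild-type NAC, and 6.06, 6.11 and 6.17 in Mll5-/- NAC. The Mll5-/- NAC arrays were higher than the arrays of every other group, and the other 3 groups met or overlapped. The mean over both treatments was 0.17 ± 0.08 (SE) higher in Mll5-/- cells, or 0.14 in mock and 0.20 in NAC, with a 95% interval of 0.01 to 0.34, an unadjusted p of 0.044 and an adjusted p of 0.54 in the limma fit.

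Shmt2, the mitochondrial enzyme that turns serine into glycine and a one-carbon unit, had its highest group mean in wild-type NAC. It read 8.46, 8.68 and 8.30 in wild-type mock, 8.45, 8.50 and 8.81 in Mll5-/- mock, 8.74, 8.74 and 8.80 in wild-type NAC, and 8.57, 8.67 and 8.72 in Mll5-/- NAC. That mean was 8.76 ± 0.03 (SD, n = 3), and its arrays lay above all wild-type mock and all Mll5-/- NAC arrays but not above Mll5-/- mock replicate 3. The difference with NAC in wild-type cells was 0.28 ± 0.13 (SE), with an unadjusted p of 0.057, and in Mll5-/- cells it was 0.07.

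Sesn2 and Ddit4 both restrain mTORC1, the kinase complex that couples amino acids to growth. Sesn2, a leucine sensor, read 3.47, 3.67 and 3.20 in wild-type mock, 3.69, 3.51 and 3.28 in Mll5-/- mock, 3.65, 3.48 and 3.16 in wild-type NAC, and 3.49, 4.0 and 4.14 in Mll5-/- NAC. The 2 highest values of the 12 were both in Mll5-/- NAC, whose remaining array lay within the range of the other groups. The mean of Sesn2 over all arrays, 3.56, exceeded that of 54.7% of symbols and was thus close to the median. The genotype difference in NAC was 0.45 ± 0.20 (SE; 95% interval 0.02 to 0.87), with an unadjusted p of 0.040 and an adjusted p of 0.68 in the limma fit, against 0.05 ± 0.20 in mock. That value depended on single arrays, at 0.64 without Mll5-/- NAC replicate 1, the array that read 3.49, and at 0.31 without wild-type NAC replicate 3. The change between mock and NAC was 0.40 ± 0.28, with an unadjusted p of 0.17.

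Ddit4, also called REDD1, responds to ATF4, to glucocorticoids, to hypoxia and to p53, and was the most variable of the 10, with a spread within groups above that of 99.3% of symbols. It read 4.12, 4.91 and 4.81 in wild-type mock, 4.95, 4.56 and 4.62 in Mll5-/- mock, 2.93, 4.93 and 4.58 in wild-type NAC, and 4.71, 3.40 and 4.34 in Mll5-/- NAC. A single low array in each NAC group, wild-type replicate 1 and Mll5-/- replicate 2, set both NAC means at 4.15, with SDs of 1.07 and 0.68, while the other NAC arrays lay inside the mock range. The difference with NAC averaged over genotypes was -0.51 ± 0.32 (SE; 95% interval -1.20 to 0.17), and the genotype difference was 0.10 ± 0.45 in mock and 0.00 ± 0.45 in NAC.

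Within groups, the 10 genes did not vary as one block. Deviations from the group mean were correlated across the 12 arrays for all 45 pairs of genes, by Pearson's r with an exact two-sided permutation of arrays within groups. The values of r ran from -0.76 to 0.70 with a median of -0.15, and 18 of 45 pairs were positive. At an unadjusted p under 0.05 there were 4 pairs, and after Benjamini-Hochberg adjustment over the 45 pairs 0 passed, with a smallest adjusted p of 0.35. The strongest positive pair was Sesn2 with Psat1 (r = 0.70, Spearman's rho = 0.73, exact permutation p = 0.031), at 0.59 without the 2 arrays furthest from the median of Sesn2. Of the other pairs at an unadjusted p under 0.05, Ddit3 with Ddit4 had r = 0.52 (rho = 0.67, exact permutation p = 0.020). Asns with Phgdh had r = -0.30 (rho = -0.39, exact permutation p = 0.023). The strongest negative pair was Chac1 with Shmt2 (r = -0.76, rho = -0.80, exact permutation p = 0.023), at -0.48 without the 2 arrays furthest from the median of Chac1.

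**Figure D3:**
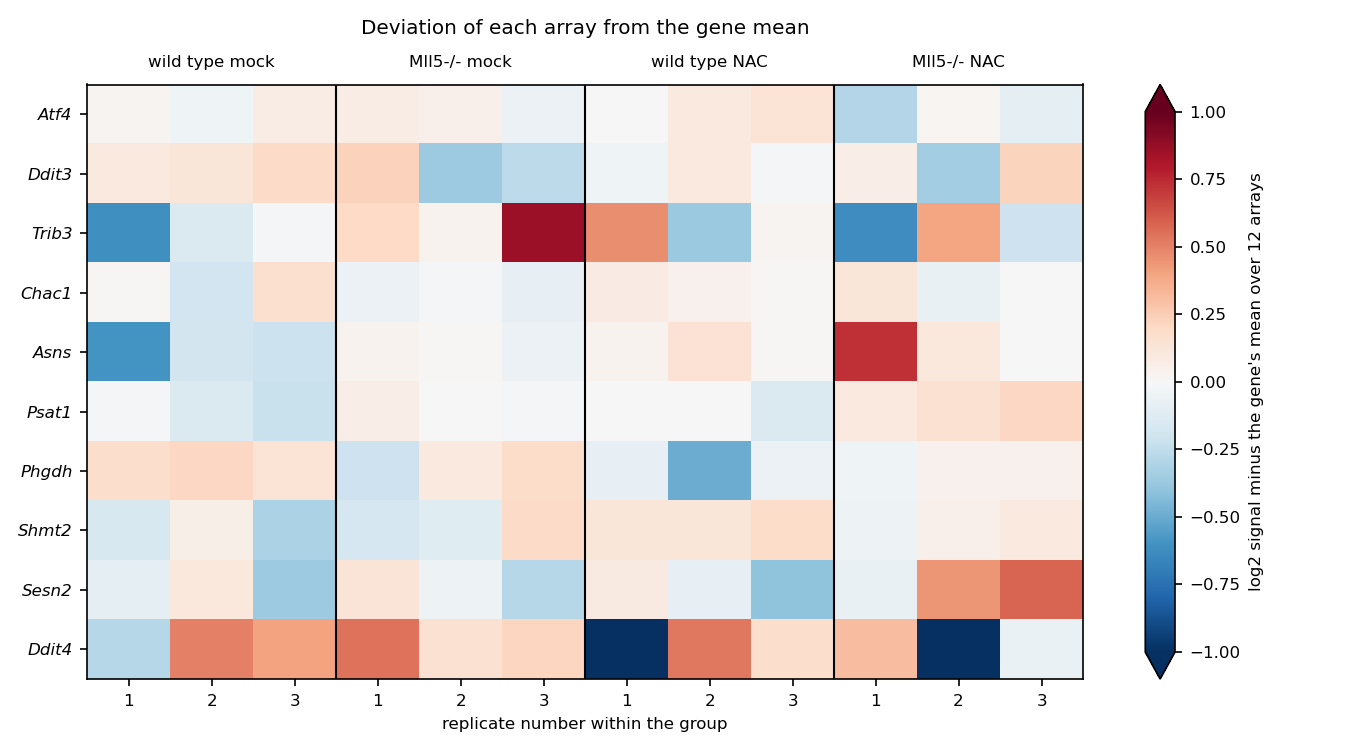
Deviation of each gene from its own mean over the 12 arrays, in log2 units, with arrays in columns by group; colours end at 1 in either direction, and 2 Ddit4 values lie past that end. Every array has between 4 and 7 genes above their mean, and the strongest deviations are those of Ddit4 in wild-type NAC replicate 1 (-1.48) and Mll5-/- NAC replicate 2.

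With each gene centred on its own mean over the 12 arrays, the mean deviation of the 10 genes was -0.04 ± 0.09 (SD, n = 3) in wild-type mock, 0.04 ± 0.06 in Mll5-/- mock, -0.03 ± 0.05 in wild-type NAC and 0.03 ± 0.05 in Mll5-/- NAC. The groups differed by less than 0.1 log2 units, and no test was made of this mean. Among 11080 other symbols brighter than the median, those that followed this mean most closely over the 12 arrays were Smim19 (Pearson's r = 0.90), Gm2695 (0.89), Hprt (0.88), Eif1-ps3 (0.88) and Cops4 (0.87). These are the highest of many values and are given as a description; the 12 arrays include the differences between groups.

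The rest of the pathway was read from lists of related genes, none of which held a gene past the threshold in any of the 7 comparisons. Upstream, of 10 kinases, phosphatase subunits and relays that act on eIF2alpha, 2 had a higher mean in Mll5-/- cells over both treatments. At an unadjusted p under 0.05 there were 2 of the 10, both lower, against 9.08% of all symbols. These were Eif2ak3, the kinase PERK, at -0.28 ± 0.12 (SE), and Dele1, which relays mitochondrial stress, at -0.46 ± 0.14; Dele1 had means of 6.48, 5.76, 6.06 and 5.86 in wild-type mock, Mll5-/- mock, wild-type NAC and Mll5-/- NAC. Ppp1r15a, the stress-induced phosphatase subunit GADD34, had means of 7.87, 7.76, 7.73 and 7.60 in the same order. Of 8 partner and sister transcription factors 2 had a higher mean in Mll5-/- cells and 4 with NAC, with 0 at an unadjusted p under 0.05 in either. Atf3 had means of 5.68, 5.57, 5.83 and 5.60, and Atf5 of 4.61, 4.56, 4.72 and 4.66. Cebpd, a C/EBP factor, had means of 4.13, 4.66, 4.70 and 4.74, with a difference of 0.57 ± 0.23 (SE) for NAC in wild-type cells.

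Among amino acid genes the largest difference was in a serine carrier. Of 11 serine and one-carbon genes beyond the 10, 6 had a higher mean in Mll5-/- cells and 7 with NAC. In each comparison 1 gene had an unadjusted p under 0.05, against 9.08% and 7.43% of all symbols. Sfxn1, which carries serine into mitochondria, was that gene in both: its means were 7.11 ± 0.21 (SD, n = 3) in wild-type mock, 7.54 ± 0.07 in Mll5-/- mock, 7.72 ± 0.11 in wild-type NAC and 7.78 ± 0.08 in Mll5-/- NAC. All 6 NAC arrays lay above all 6 mock arrays, where 0.338% of all symbols separated in either direction. The Sfxn1 difference with NAC was 0.42 ± 0.09 (SE), with an adjusted p of 0.24 in the limma fit. Psph, the last enzyme of serine synthesis, had means of 5.61, 5.35, 5.56 and 5.55, and Mthfd2, a mitochondrial folate enzyme, of 4.60, 4.40, 4.57 and 4.81. Of 9 other amino acid enzymes 5 had a higher mean in Mll5-/- cells and 4 with NAC, and of 11 amino acid transporters 3 and 5 did. In these averaged comparisons 1 of the 20 genes had an unadjusted p under 0.05, against 9.08% and 7.43% of all symbols. It was the glutamine and alanine carrier Slc38a2, at -0.20 with NAC, named after its values were seen. In single pairwise comparisons others did, such as the transporter Slc1a4 at 0.44 with NAC in Mll5-/- cells (unadjusted p of 0.049 in the limma fit). Slc3a2, the heavy chain shared by several amino acid carriers, had a genotype difference of -0.33 ± 0.14 (SE) in NAC. Slc7a11, the cystine carrier, lay below the median symbol at 2.05, 1.99, 2.02 and 2.13.

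The tRNA synthetases and the organelle chaperones had more means on one side. Of 16 cytosolic tRNA synthetases, 13 had a higher mean in Mll5-/- cells over both treatments, against 50.7% of all symbols. Of these, 3 had an unadjusted p under 0.05, against 9.08% of all symbols in either direction, and the list's median difference was 0.10. Lars and Tars, which charge tRNA with leucine and threonine, had the largest genotype differences of the list. They were 0.36 ± 0.10 (SE) and 0.33 ± 0.10, with adjusted p-values of 0.31 and 0.34 in the limma fit. With NAC 14 of the 16 were higher, against 49.6% of all symbols, with a median of 0.07, led by Cars at 0.35 ± 0.11. For NAC over both genotypes, 7.43% of all symbols had an unadjusted p under 0.05. Of 10 mitochondrial chaperones and proteases, 9 had a higher mean in Mll5-/- cells (median 0.15; Hspd1, Hspa9 and Yme1l1 at an unadjusted p under 0.05) and all 10 did with NAC (median 0.13; Hspd1 alone). Of 14 endoplasmic reticulum (ER) chaperones and related genes, 4 had a higher mean in Mll5-/- cells (median -0.05; 0), while 13 did with NAC (median 0.24; 5), led by Sdf2l1, a chaperone cofactor, at 0.70 ± 0.23 with an adjusted p of 0.50. The other ER genes at an unadjusted p under 0.05 with NAC were Pdia6 (0.34), Manf (0.30), Hsp90b1 (0.27) and Calr (0.23). Hspd1, Hspa9, Manf, Hsp90b1 and Calr were named after their values were seen. Genes of one list are not independent of each other, and no list was tested as a set.

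**Figure D4:**
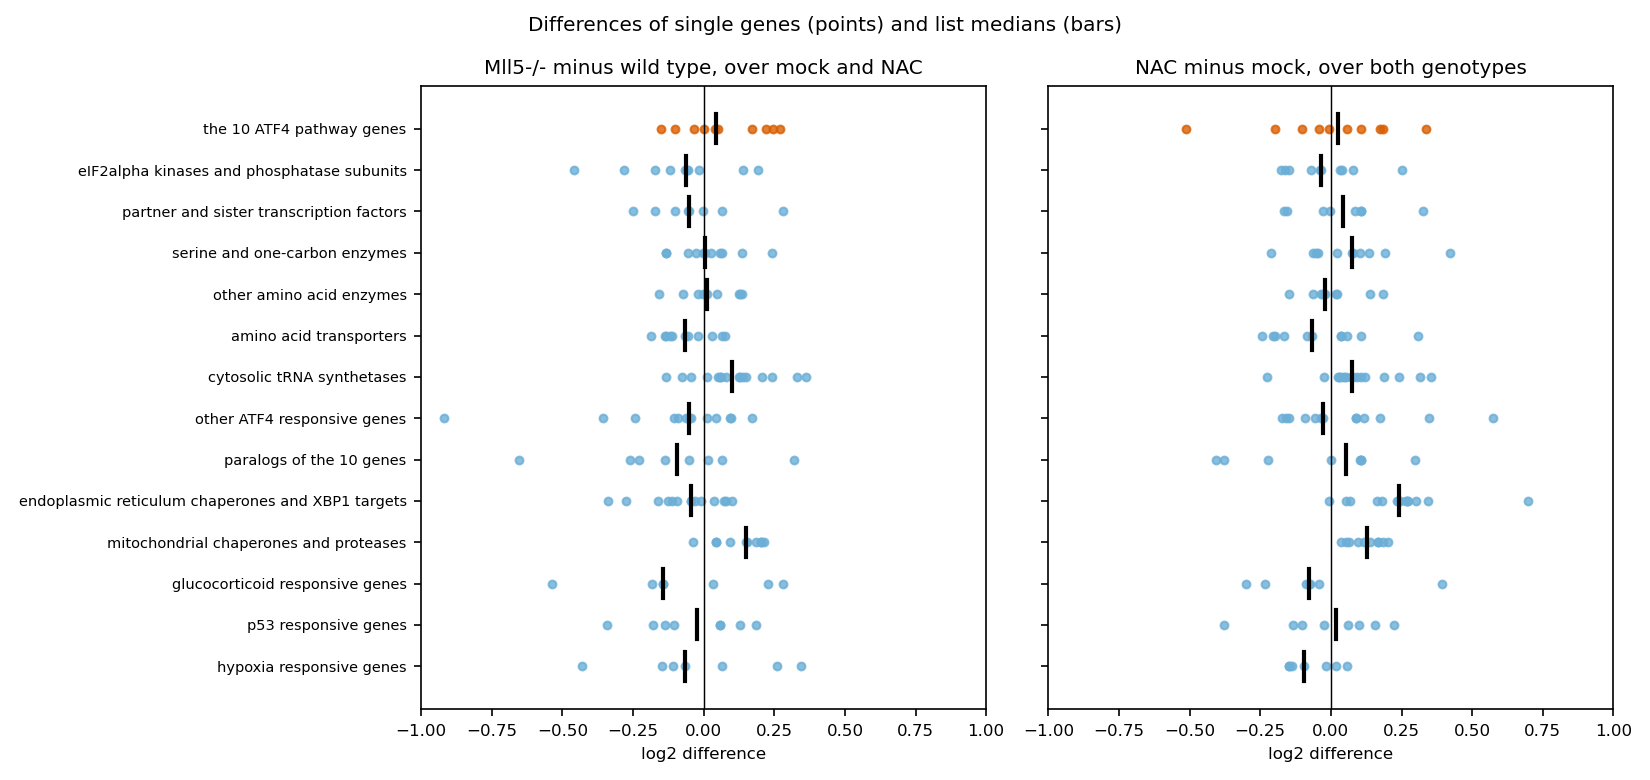
Log2 differences of single genes (points) and their medians (bars) for the 10 genes and the related lists, for genotype averaged over treatments and for NAC averaged over genotypes. The chaperones of the endoplasmic reticulum lie mostly above 0 for NAC (median 0.24), while the 10 genes centre on 0.05 and 0.03.

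Both the genotype and the NAC differences came together with differences in cell type markers. Over all symbols, 9.08% had an unadjusted p under 0.05 for genotype over both treatments, and 7.43% for NAC over both genotypes. Between genotypes, over both treatments, all 7 markers of megakaryocytes and platelets had a higher mean in Mll5-/- cells, 5 at an unadjusted p under 0.05 (median 0.46), and Selp, the adhesion protein P-selectin, passed the adjusted threshold at 1.48 ± 0.18 (SE; adjusted p = 0.027 in the limma fit). The summed log2 signal of that list ranged over 7.61 to 8.04 in wild-type mock, 8.04 to 8.74 in Mll5-/- mock, 7.63 to 7.82 in wild-type NAC and 8.49 to 8.81 in Mll5-/- NAC. All 9 markers of B and plasma cells had a lower mean in Mll5-/- cells, 3 at an unadjusted p under 0.05 (median -0.25). Ms4a1 and Ebf1 of these 9 had mean signals of 1.81 and 2.63, below the median symbol. Among them Jchain, the joining chain of secreted antibodies, had means of 5.52, 2.66, 7.37 and 4.67 in wild-type mock, Mll5-/- mock, wild-type NAC and Mll5-/- NAC, a genotype difference of -2.78 ± 0.43 (adjusted p = 0.060) and a difference with NAC of 1.93 ± 0.43 (adjusted p = 0.26). The summed signal of the B and plasma cell list ranged over 7.59 to 7.99, 7.11 to 7.46, 8.08 to 8.85 and 7.54 to 7.65 in the same order. Jchain had the widest range of the 9, from 2.36 to 8.21, and weighs heavily in that sum of linear signals. Of the LSK markers, 1 was higher and 3 were lower in Mll5-/- cells at an unadjusted p under 0.05, with Flt3 at -0.74 ± 0.17. Selp, Jchain, S100a8, S100a9, Cxcr2 and Flt3 were named after their values were seen. With NAC, over both genotypes, 1 of 9 LSK markers was higher with NAC and 7 were lower at an unadjusted p under 0.05 (median -0.32), while 6 of 7 markers of committed granulocyte and monocyte progenitors were higher, 5 at an unadjusted p under 0.05 (median 0.57). The summed signal of the LSK markers, on the log2 scale, ranged over 11.61 to 11.88 in wild-type mock, 11.64 to 11.80 in Mll5-/- mock, 11.53 to 11.64 in wild-type NAC and 11.22 to 11.47 in Mll5-/- NAC. That of the committed progenitor markers, all 7 of which lay above the median symbol, ranged over 12.24 to 13.19, 11.70 to 12.91, 12.97 to 13.14 and 12.64 to 13.10. The part of these markers in the values of Asns, Psat1, Sfxn1, the tRNA synthetases and the chaperones was not tested, and in sorted cells measured in bulk, fewer cells of a type and less RNA per cell cannot be told apart.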

How the data were processed

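RNA from sorted LSK cells was labelled with a biotin kit and hybridised to 12 Affymetrix arrays. Per the submitters' processing notes, the authors made the deposited log2 signals with Affymetrix Power Tools and RMA, which corrects background, normalizes between arrays and reduces the probes of a set to 1 value. No source names the base of the logarithm; it was taken as 2 from the values, which run from 0.74 to 13.23. Genome build and program versions: not given in the sources used here. Of 41345 probe sets, 23521 had 1 gene symbol and 17824 had several or none; the brightest per symbol left 22180.

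All symbols were fitted with limma 3.58.1 (R 4.3.3; lmFit with a mean per group, eBayes, 8 residual degrees of freedom before moderation), with 7 contrasts, Benjamini-Hochberg adjustment and a threshold of 0.05. The fit was tested on simulated data. The median standard error was 0.16 in log2 units and is limited by the 12 arrays. The 10 genes and all lists were chosen with earlier results of these data known. Besides the 10, the text names Kmt2e and some fixed genes, up to 3 genes of each list with the largest moderated t over the 4 pairwise comparisons, and the 5 symbols most like the mean of the 10. Same-numbered replicates did not deviate together (0 of 18 pairs with r over 0.1), so the numbers were not used as a block. Alternatives changed the filter, scaling, probe set rule, variance model, block and arrays used. Python 3.11.15 and matplotlib 3.10.9 drew the figures.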

Additional observations from a re-analysis of the deposited data

How the results depend on the processing

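In every setting tried, 0 of the 10 genes passed the adjusted threshold in any of the 7 comparisons. The correlations of the 45 pairs were rerun in 1 setting only, without the 2 arrays furthest from the median of the first gene of a pair. There too 0 of 45 pairs passed. Over 70 differences (10 genes in 7 comparisons) and 24 settings, the reported one included, the smallest adjusted p was 0.42. There were 63 changes of sign among 1496 values, all of them for differences whose reported unadjusted p was 0.05 or above. With the replicate number as a block, the Psat1 genotype difference over both treatments was 0.17 with an unadjusted p of 0.059, and that of Asns with NAC in wild-type cells was 0.40 with a p of 0.061; the numbers were not shown to pair samples, since same-numbered deviations correlated at -0.06 to 0.06 and 5 of 12 arrays correlated best with their own number. Counts over all symbols were small and unsteady: genotype in NAC gave 0 symbols in the reported fit, 4 with array weights and 5 with all probe sets, and genotype over both treatments gave 2, or 12 at an adjusted p under 0.10. Over the settings, 11 to 14 of 14 endoplasmic reticulum genes were higher with NAC, and 12 to 14 of 16 tRNA synthetases in Mll5-/- cells. Trib3 and Chac1 lay below the median signal, and were left out where dim symbols were removed.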

Other observations

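Of 8 paralogs of the 10 genes, 3 had a higher mean in Mll5-/- cells over both treatments and 5 with NAC, and none passed the adjusted threshold. Sesn3, a sestrin like Sesn2 and a known FOXO target, had means of 6.61 ± 0.14 (SD, n = 3) in wild-type mock, 5.81 ± 0.25 in Mll5-/- mock, 6.06 ± 0.31 in wild-type NAC and 5.55 ± 0.32 in Mll5-/- NAC, a genotype difference over both treatments of -0.66 ± 0.14 (SE; adjusted p = 0.18 in the limma fit), opposite in sign to the 0.25 ± 0.14 of Sesn2. Chac2, the constitutive relative of Chac1, had means of 3.08, 3.23, 3.21 and 3.70, with Mll5-/- NAC arrays that agreed within an SD of 0.01; its genotype difference was 0.32 ± 0.10 (adjusted p = 0.37). Trib1 had means of 4.93, 4.50, 4.54 and 4.44. Of 13 other ATF4 responsive genes 5 had a higher mean in Mll5-/- cells and 6 with NAC. Vldlr, a lipoprotein receptor induced by ATF4, differed most between genotypes among them, at -0.92 ± 0.17 (adjusted p = 0.12 in the limma fit). All 6 Mll5-/- arrays lay below all 6 wild-type arrays, where 0.546% of all symbols separated in either direction. Ero1a, an oxidase of the endoplasmic reticulum, had means of 6.50, 6.78, 7.26 and 7.17, a difference with NAC of 0.57 ± 0.20 (adjusted p = 0.51).

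Genes that respond to other regulators of Ddit4 and Sesn2 were read from 3 further lists. Over both treatments, 3 of 7 glucocorticoid responsive genes, 4 of 8 genes of p53 and 3 of 7 hypoxia responsive genes had a higher mean in Mll5-/- cells, and with NAC 1, 4 and 2 did. Of all symbols, 50.7% had a higher mean in Mll5-/- cells and 49.6% with NAC. These counts take no account of the size of the differences and were not tested. Per1, a clock gene that glucocorticoids induce, had means of 7.81, 7.26, 7.56 and 7.04 (genotype difference -0.54 ± 0.14, adjusted p = 0.30), and Vegfa, a hypoxia responsive growth factor, had means of 6.79, 6.81, 7.29 and 6.42.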
